A study of Homo sapiens with 20 samples.

Results

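Chromatin-associated RNA was compared between human embryonic kidney cells in which Dicer was depleted by a short hairpin RNA (shDicer) and wild-type cells (wt), with 2 sequenced samples in each group. These 4 samples were chosen by their labels, out of 14 samples with transcript tables in the series and 20 samples in all. HEK293 is an established line from embryonic kidney, and HEK293T, the name used in the study's methods, is its derivative that carries the SV40 large T antigen. The shDicer cells hold an integrated cassette whose hairpin against the DICER1 mRNA is switched on by doxycycline, given at 3 ug/ml for 72 hours, whereas the wt cells carry no hairpin and their doxycycline treatment is not stated for this assay. The remaining chromatin samples are a pair from cells with a doxycycline-inducible hairpin against AGO2 (shAgo2, also 3 ug/ml for 72 hours) and a pair from cells transfected with a hairpin plasmid against DROSHA (shDrosha). A separate mRNA-seq set holds 3 induced HEK293T samples, used as wt, and 3 samples of an induced line named HEK293 2B, used as shDicer, both after 3 ug/ml doxycycline for 7 days.

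Several features of the design limit what the comparison can separate. The shDicer and shAgo2 cells are recombinant lines whereas wt is the line without a cassette, no line with a scrambled hairpin is part of the comparison, and the methods describe both a clone that carries tagged Dicer beside the hairpin and a line with the hairpin alone, without saying which was sequenced. The history of a line and the depletion of Dicer therefore cannot be told apart in the values below. The labels do not say that the replicates came from separate cultures, so each p-value measures the spread between these samples only.

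RNA that stays attached to chromatin during cell fractionation is enriched for transcripts still being made by RNA polymerase and for nuclear non-coding RNAs, and it is used as an approximation of nascent transcription. Dicer is the endonuclease that cuts double-stranded precursors into microRNAs, which with Argonaute proteins such as AGO2 repress mRNAs mostly in the cytoplasm, and some fragments of tRNAs are also made by it. Drosha makes the microRNA precursors that Dicer cuts. A gene's change in chromatin RNA reflects its synthesis and its retention in the nucleus, whereas mRNA-seq also carries its stability in the cytoplasm.

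Of 32874 genes with enough counts to be tested, 3631 (11.0%) were upregulated and 3465 (10.5%) were downregulated in shDicer chromatin RNA at an adjusted p below 0.005 (edgeR quasi-likelihood test, Benjamini-Hochberg adjustment over all tested genes). The median log2 fold change over all tested genes was 0.01. Upregulated genes moved further than downregulated ones. Their median log2 fold change was 1.05 with quartiles of 0.67 and 1.74, against a median of -0.70 with quartiles of -0.98 and -0.53 among the downregulated genes. More than 2-fold changes were passed by 1911 upregulated genes (5.81% of those tested) and 828 downregulated genes (2.52%). A log2 fold change above 3 was reached by 385 genes, and one below -3 by 164 genes. The upregulated genes had a lower wt level, with a median of 3.81 TPM (transcript abundance corrected for transcript length) against 18.7 TPM for the downregulated genes and 5.87 TPM for all tested genes. The wt level is 1 side of the contrast that made the calls, so this difference is partly built in. From the lowest to the highest protein-coding quintile by wt TPM, risers went from 18.3% to 7.02% and fallers from 4.14% to 32.6%. By mean TPM over all chromatin samples, risers were 11.4% and 11.8%, and fallers 6.54% and 26.9%. Genes with few counts also need a larger change to be called. Both shDicer samples lay above both wt samples in 34.8% of tested genes and below both in 33.8%. The counts depended on the wt samples, since 2043 genes were upregulated and 1831 downregulated without wt replicate 1, and 2135 and 1841 without wt replicate 2.

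The 4 samples held 17484067 to 20453521 estimated counts, and the median absolute difference of a gene was 0.09 on the log2 scale between the wt replicates and 0.13 between the shDicer replicates. All 16 listed HEK293 features were tested, of which 5 rose and 4 fell in shDicer. Among 18 markers of other cell types, 14 were tested, INS was at 0 in all 4 samples, 2 rose and 1 fell, and their summed level was 108 to 114 CPM (counts scaled to an equal library total) in wt and 106.7 to 115 CPM in shDicer. The hairpin's own target did not pass the test in chromatin RNA. DICER1 was measured at 119 and 124 CPM in wt and 107.2 and 108 CPM in shDicer (log2 fold change -0.17 ± 0.09 SE, adjusted p = 0.17), and in mRNA-seq at 252, 257 and 232 CPM in wt and 80.6, 94.4 and 88.4 CPM in shDicer, a log2 fold change of -1.49 ± 0.08 with an adjusted p of 1.3e-07. Both shDicer chromatin samples lay slightly below the wt samples for DICER1, whereas all 3 shDicer mRNA samples lay below all 3 wt samples.

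The 12 largest increases were in genes at or near 0 in wt chromatin RNA. Values below are CPM after library-size scaling, given for each replicate, and they are compared only within a gene because longer transcripts collect more counts. A value in brackets with ± is the log2 fold change of shDicer over wt in chromatin RNA with its standard error (SE), and gene values given without ± are log2 fold changes as well unless they carry a unit. MGMT, which removes alkyl groups from guanine in DNA (chromosome 10, 129467190 to 129770983, plus strand, GRCh38, like all positions below), was at 0 and 0 CPM in wt and 38.0 and 43.1 CPM in shDicer. Against a floor of 3 counts per wt sample this is an at least 221-fold increase. KRT19, a keratin of simple epithelia (chromosome 17, 41523617 to 41528308, minus strand), was at 0 and 0 CPM in wt and 27.3 and 30.2 CPM in shDicer, at least 157-fold higher. Both shDicer samples lay above both wt samples in each gene, which the choice of the 12 genes required. Of all tested genes 34.8% had this order. The 12 increases were also taken among genes whose mean log2 CPM reached 3, which a gene at 0 in wt passes through its shDicer level. ARHGEF5, a guanine nucleotide exchange factor on chromosome 7, was at 0 and 0 CPM in wt and 24.2 and 27.1 CPM in shDicer, at least 139-fold higher, and its related pseudogene ARHGEF34P was at least 95.9-fold higher. The gene and its pseudogene share sequence, so that reads may be split between them.

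A pair of genes of cornified skin was among the same group. HRNR, which encodes hornerin, was at 0 and 0.0632 CPM in wt and 65.3 and 67.9 CPM in shDicer, a ratio of counts of 2177 (390.4 to 86034) with its 95% exact counting interval in brackets. FLG, which encodes filaggrin and lies next to HRNR on chromosome 1, was at 0.0593 and 0.126 CPM in wt and 68.8 and 78.7 CPM in shDicer, a ratio of 804 (275 to 3899.9). The intervals cover counting error only. ERBB4, a receptor tyrosine kinase for neuregulins (chromosome 2, 211375717 to 212538841, minus strand), was at 0.415 and 0 CPM in wt and 87.3 and 92.3 CPM in shDicer (log2 fold change 8.67 ± 0.27 SE, adjusted p = 9.6e-10), and ANOS1, the secreted protein that guides gonadotropin-releasing neurons, was at 0.119 and 0.126 CPM in wt and 37.3 and 49.5 CPM in shDicer (log2 fold change 8.39 ± 0.28 SE, adjusted p = 1.5e-09). The remaining members of the 12 largest increases were 4 genes without a symbol. ENSG00000290606, a lncRNA, was at 0 and 0 CPM in wt and 52.8 and 58.3 CPM in shDicer (at least 302-fold), ENSG00000283269, a transcribed pseudogene, was at least 273-fold higher, and ENSG00000288473, a lncRNA, at least 88.7-fold higher. The fourth, ENSG00000274276, has the annotation biotype artifact on chromosome 21 and its value, at 0 and 0 CPM in wt and 7.79 and 9.32 CPM in shDicer, is uncertain.

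The 12 decreases described first were taken among genes whose mean log2 CPM reached 3, which a falling gene passes through its wt level. FLNC, the filamin that crosslinks actin in muscle, was at 156 and 167 CPM in wt and 6.32 and 6.78 CPM in shDicer (log2 fold change -4.62 ± 0.19 SE, adjusted p = 8.5e-09). PXDN, the peroxidase that crosslinks collagen IV in basement membranes, was at 114 and 122.8 CPM in wt and 5.37 and 4.66 CPM in shDicer (log2 fold change -4.56 ± 0.12 SE, adjusted p = 6.1e-10). AMOT, an adaptor of the Hippo pathway on the X chromosome, was at 1083 and 1315 CPM in wt and 53.4 and 77.6 CPM in shDicer (log2 fold change -4.19 ± 0.22 SE, adjusted p = 5.2e-08). In each of the 3 genes the 2 shDicer samples were more than 10-fold below both wt samples.

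The imprinted pair of chromosome 6 fell together. PLAGL1, a zinc finger protein that arrests the cell cycle (chromosome 6, 143940300 to 144064599, minus strand), was at 28.1 and 28.6 CPM in wt and 1.21 and 1.43 CPM in shDicer (log2 fold change -4.42 ± 0.15 SE, adjusted p = 1.7e-09), and HYMAI, the paternally expressed non-coding RNA that starts within PLAGL1, was at 35.7 and 38.9 CPM in wt and 0.579 and 0.901 CPM in shDicer (log2 fold change -5.64 ± 0.17 SE, adjusted p = 9e-10). PTGFR, the receptor for prostaglandin F2-alpha, was at 27.04 and 26.5 CPM in wt and 1.42 and 1.75 CPM in shDicer (-4.07 ± 0.16), and PRTFDC1, related to the purine salvage enzyme HPRT1, at 17.3 and 19.1 CPM in wt and 0.684 and 1.11 CPM in shDicer (-4.33 ± 0.23). TAP2 (-5.21 ± 0.24) and VPS52 (-4.56 ± 0.15) also ranked here, but both lie in the HLA region, where reads can be split between haplotype copies in the transcript set. The last 3 were the lncRNA ENSG00000277693 (-5.67 ± 0.16), the processed pseudogene EIF3FP1 (-5.004 ± 0.15) and ENSG00000272872 (-4.34 ± 0.17). The plot of the 24 genes shows every sample.

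The RNA silencing machinery itself moved little in chromatin RNA, and mostly downward. Of 18 tested members, 1 was upregulated and 7 were downregulated (38.9%), with a median log2 fold change of -0.19 (0.01 over all tested genes). Of all tested genes 10.5% fell, and of protein-coding genes 16.9%. In the highest protein-coding quintile by mean TPM over all chromatin samples 26.9% fell. The count of downregulated members fell to 2 without wt replicate 2. LIN28B, which blocks the maturation of let-7, was the member that rose, at 25.4 and 26.7 CPM in wt and 45.0 and 48.0 CPM in shDicer (log2 fold change 0.84 ± 0.10 SE, adjusted p = 3.7e-05). TUT7, a uridylyltransferase that tags let-7 precursors, was at 62.1 and 69.6 CPM in wt and 31.5 and 33.8 CPM in shDicer (log2 fold change -1.01 ± 0.09 SE, adjusted p = 5.6e-06), and TNRC6A, the scaffold that joins Argonaute to mRNA decay enzymes, was at 170.3 and 172 CPM in wt and 112 and 113 CPM in shDicer (log2 fold change -0.61 ± 0.07 SE, adjusted p = 4.1e-05). Both fell, with no overlap between groups.

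Exportin 5 (XPO5, -0.66 ± 0.10), AGO1 (-0.41 ± 0.08), AGO3 (-0.39 ± 0.07), the Drosha partner DGCR8 (-0.42 ± 0.08) and the exonuclease DIS3L2 (-0.41 ± 0.08) also passed the threshold. These 5 calls were lost when wt replicate 2 was left out (adjusted p of 0.0059, 0.018, 0.024, 0.0052 and 0.015), and for the last 4 also without wt replicate 1 (0.0095, 0.011, 0.035 and 0.011). Against the median of their 50 neighbouring genes they were not called either, a comparison described with the chromosomes. AGO2 (log2 fold change -0.09, adjusted p = 0.4) and DROSHA (0.05, adjusted p = 0.65) were not called, and the remaining 7 members, PRKRA, TARBP2, LIN28A, TNRC6B, TNRC6C, TUT4 and AGO4, lay between -0.27 and 0.25 with adjusted p-values of at least 0.016.

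The study matched small RNAs from tRNAs (tsRNAs) to individual genes and transfected synthetic copies. Their sequences are shown because the genes they were matched to are measured here.
tsRNA for SPINT1: cgagucucgguggaaccuuugu
tsRNA for LINC00665: ggggguguagcucaguggua
tsRNA for EGFR and MET: ucccugguggucuagugguuag
tsRNA for BCL2: uaagccagggauuguggguucg

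All 5 of these genes were upregulated in shDicer chromatin RNA. SPINT1, an inhibitor of the protease that activates hepatocyte growth factor (chromosome 15, 40844018 to 40858207, plus strand), was at 1.13 and 1.20 CPM in wt and 16.6 and 20.3 CPM in shDicer (log2 fold change 3.98 ± 0.18 SE, adjusted p = 2e-08). LINC00665, a lncRNA of chromosome 19, was at 45.95 and 46.9 CPM in wt and 293 and 283 CPM in shDicer (log2 fold change 2.63 ± 0.08 SE, adjusted p = 8.6e-10). The hepatocyte growth factor receptor MET was at 33.0 and 34.6 CPM in wt and 83.9 and 96.8 CPM in shDicer (log2 fold change 1.42 ± 0.10 SE, adjusted p = 8e-07). Each of the 3 had both shDicer samples above both wt samples, as had the epidermal growth factor receptor EGFR at 33.3 and 39.5 CPM in wt and 62.9 and 84.7 CPM in shDicer (log2 fold change 1.02 ± 0.15 SE, adjusted p = 0.00017). BCL2, the inhibitor of apoptosis, was at 26.7 and 25.3 CPM in wt and 37.0 and 39.2 CPM in shDicer (log2 fold change 0.55 ± 0.09 SE, adjusted p = 0.00033), and this smaller change lost its call without wt replicate 2 (adjusted p = 0.0073) and against its neighbours on chromosome 18, whose own median was 0.41 (log2 fold change 0.14, adjusted p = 0.24).

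The wider list of 16 genes that the study tested as targets or controls held 15 genes measured here, of which 10 rose, with a median log2 fold change of 1.30. The study predicted its targets among genes upregulated in its own mRNA-seq and chromatin RNA, and the list also holds controls, so that its direction is not independent evidence. CCN3, a matricellular protein (4.90 ± 0.42), GUCY1A2, a subunit of soluble guanylate cyclase (3.47 ± 0.16), glycerol kinase GK (3.16 ± 0.11), the divergent lncRNA CNN3-DT (1.89 ± 0.16) and the retinol-binding protein RBP7 (1.30 ± 0.19) completed the risers. RBP7 was not called against its neighbours (adjusted p = 0.0082). ETNK1, TBCEL, GAPDH, HPRT1 and EEF1A1 lay between -0.42 and 0.08 and were not called.

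Of 57 tested receptor tyrosine kinases, 23 rose and 5 fell, against 11.0% and 10.5% of all tested genes, with a median log2 fold change of 0.35 (3 fallers without wt replicate 1). Among 320 gene families defined by a shared symbol root, which also counts antisense and related genes of that root, the ephrin receptors EPHA had the highest share of upregulated members, with 10 of 12 rising. EPHA5 was at 0.593 and 0.821 CPM in wt and 7.53 and 8.37 CPM in shDicer (log2 fold change 3.48 ± 0.24 SE, adjusted p = 6.2e-07), EPHA3 was at 7.77 and 7.14 CPM in wt and 27.3 and 30.7 CPM in shDicer and EPHA7 had a log2 fold change of 1.52. The family's antisense transcripts EPHA5-AS1 (3.01) and EPHA2-AS1 (1.41) rose beside their genes, while EPHA1 and EPHA1-AS1 were not called. Members of families are named here after their values were seen. Against this direction, RET, the receptor of glial-derived neurotrophic factors, was at 17.7 and 15.2 CPM in wt and 3.11 and 3.81 CPM in shDicer (log2 fold change -2.25 ± 0.15 SE, adjusted p = 4e-07), and DDR2, a collagen receptor, at 13.6 and 14.6 CPM in wt and 4.58 and 4.98 CPM in shDicer (log2 fold change -1.56 ± 0.14 SE, adjusted p = 4e-06).

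The SEMA root holds the semaphorins, which guide axons and migrating cells, and 4 of their antisense RNAs. It rose in 11 of 24 members and fell in 3, with SEMA3E (4.09), SEMA3A (2.96), SEMA5B (2.13) and the antisense SEMA3B-AS1 and SEMA6A-AS1 upward and SEMA4A (-1.37), SEMA3G and SEMA3F-AS1 downward. The count of risers was 7 without wt replicate 1, and the 3 decreases then lost their calls. Members of the LDL receptor-related root LRP rose in 7 of 16, with log2 fold changes of 0.92 for the WNT co-receptor LRP6 and 1.13 for LRP1B. The CAMK root, with calcium and calmodulin-dependent kinases, their inhibitors CAMK2N1 and CAMK2N2 and the antisense CAMK2G-AS1, rose in 6 of 11 members, all of them kinases and led by CAMK1G (3.49), and this count was 3 without wt replicate 1. The kinase CAMK2G fell (-0.52), a call lost without wt replicate 1 and with the neighbouring genes as the reference.

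Collagens and laminins rose in 18 of 52 tested members and fell in 5 (median 0.23, 3 fallers without wt replicate 2), integrins in 9 of 25 and 2 (median 0.40, 5 risers without shDicer replicate 2), and clustered protocadherins rose in 10 of 42 (median 0.36). These counts stand beside 14.3% of protein-coding genes that rose and 16.9% that fell. COL14A1, a collagen of fibril surfaces, was at 17.3 and 19.1 CPM in wt and 209 and 281 CPM in shDicer (log2 fold change 3.75 ± 0.15 SE, adjusted p = 5.8e-09). ITGA4, the integrin subunit that binds fibronectin and VCAM1, was at 7.29 and 7.01 CPM in wt and 37.8 and 49.9 CPM in shDicer (log2 fold change 2.62 ± 0.14 SE, adjusted p = 8e-08), and ITGA6, a laminin receptor, rose by 1.34 on the log2 scale. COL2A1, the collagen of cartilage, went the other way at 61.7 and 68.7 CPM in wt and 9.74 and 11.97 CPM in shDicer (log2 fold change -2.59 ± 0.17 SE, adjusted p = 3.7e-07). The protocadherins PCDHGB5 (5.60 ± 0.19) and PCDHAC2 (3.09 ± 0.21) share constant exons with their cluster, so that their assignment among neighbours is uncertain.

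In the list of epithelial-mesenchymal genes 10 of 22 rose and 2 fell (median 0.68). EPCAM, the epithelial adhesion molecule, was at 1.36 and 1.64 CPM in wt and 40.8 and 49.2 CPM in shDicer (log2 fold change 4.90 ± 0.16 SE, adjusted p = 1.3e-09), and the tight junction gene CLDN1 was at 0.356 and 0.316 CPM in wt and 4.58 and 5.51 CPM in shDicer (log2 fold change 3.88 ± 0.35 SE, adjusted p = 4.6e-06). The fallers were SNAI2 and vimentin. SNAI2, a transcription factor of the mesenchymal state, was at 7.53 and 7.14 CPM in wt and 0.316 and 0.477 CPM in shDicer (log2 fold change -4.19 ± 0.26 SE, adjusted p = 2.7e-07), and vimentin (VIM) was at 511 and 573 CPM in wt and 158 and 224 CPM in shDicer (log2 fold change -1.504 ± 0.17 SE, adjusted p = 3e-05). KRT8, the partner keratin of simple epithelia, rose to 52.7 and 59.1 CPM (1.502 ± 0.09), whereas the hair keratins KRT32 (-5.61 ± 0.31, 9.25 and 9.41 CPM in wt) and KRT35 (-5.53 ± 0.30, 6.40 and 6.44 CPM in wt) fell. Keratins and desmosome genes as a list rose in 5 of 21 and fell in 5, and cadherins and claudins rose in 5 of 40 and fell in 4 (3 risers without shDicer replicate 2 and 1 faller without wt replicate 1).

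Developmental pathway lists held more risers than fallers. The risers made up 24.5% of the WNT, 24.1% of the TGF-beta and BMP and 30.8% of the Notch list. Of all tested genes 11.0% rose and 10.5% fell, and of protein-coding genes 14.3% and 16.9%. In the protein-coding quintile with the greatest genomic length 25.5% rose, near the WNT and TGF-beta shares. WNT genes rose in 13 of 53 and fell in 3 (8 risers without wt replicate 2 and 1 faller without wt replicate 1), with RNF43, the ligase that removes Frizzled receptors, at 6.70 and 4.67 CPM in wt and 124 and 128 CPM in shDicer (log2 fold change 4.46 ± 0.14 SE, adjusted p = 9.6e-10) and the receptor FZD10 at 3.74 and 2.78 CPM in wt and 0.158 and 0.106 CPM in shDicer (log2 fold change -4.56 ± 0.40 SE, adjusted p = 3.7e-06). TGF-beta and BMP genes rose in 14 of 58 and fell in 5 (9 risers without wt replicate 2, when the 5 decreases also lost their calls), with the follistatin-like FSTL4 at 6.40 and 6.63 CPM in wt and 54.8 and 61.0 CPM in shDicer (log2 fold change 3.15 ± 0.13 SE, adjusted p = 7.8e-09) and the ligand BMP2 with a log2 fold change of 2.57. Notch genes rose in 8 of 26 and fell in 1 (median 0.52), with the ligand JAG1 at 24.2 and 25.3 CPM in wt and 56.5 and 70.7 CPM in shDicer (log2 fold change 1.36 ± 0.12 SE, adjusted p = 4.9e-06) and the coactivator MAML2 with one of 1.65. RNF43 and FZD10 stood at opposite ends of the called WNT genes. Among 29 G1 regulators, cyclin D1 (CCND1) was at 13.99 and 13.1 CPM in wt and 64.8 and 66.6 CPM in shDicer (log2 fold change 2.28 ± 0.09 SE, adjusted p = 5.2e-09) and the inhibitor CDKN1A rose by 1.61 on the log2 scale, while 8 members fell, E2F5 (-0.77) and E2F8 (-0.87) among them.

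Zinc finger genes of chromosome 19, most of which encode KRAB-domain repressors in tandem clusters, rose in 109 of 250 tested members and fell in 12 (median 0.35, 6 fallers without shDicer replicate 2). ZNF227 was at 29.2 and 28.9 CPM in wt and 199.8 and 215 CPM in shDicer (log2 fold change 2.84 ± 0.08 SE, adjusted p = 8.1e-10) and its neighbour ZNF226 at 21.9 and 21.9 CPM in wt and 121 and 129.8 CPM in shDicer (log2 fold change 2.52 ± 0.08 SE, adjusted p = 1.2e-09). ZNF256 rose by 2.73 on the log2 scale. The divergent lncRNAs ZNF8-DT (2.61 ± 0.11) and ZNF567-DT (2.41 ± 0.13) rose too, and ZSCAN22 (-1.04 ± 0.10) and ZNF324 (-0.87 ± 0.08) fell. With the 50 genes around each of them as the reference, 44 rose and 15 fell. These surroundings, with a median of 0.22, include other zinc finger genes of the same clusters. The reference therefore takes up part of the list's own change. TRIM28, the corepressor that KRAB zinc finger proteins recruit, was at 385 and 407 CPM in wt and 161 and 169.6 CPM in shDicer (log2 fold change -1.26 ± 0.10 SE, adjusted p = 2.5e-06).

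HOX cluster genes, which set position along the body axis, went down in 19 of 38 tested members and up in 1 (median -0.45). The count was 10 without wt replicate 1 and 10 with the neighbouring genes as the reference. That reference includes other HOX genes of the same cluster and so takes up part of their change. Counting antisense transcripts with each symbol root, HOXA fell in 8 of 13 and HOXC in 6 of 10. HOXC11 was at 19.4 and 22.2 CPM in wt and 4.11 and 3.23 CPM in shDicer (log2 fold change -2.50 ± 0.14 SE, adjusted p = 1e-07), HOXC10 at 18.7 and 18.8 CPM in wt and 3.9999 and 3.66 CPM in shDicer and HOXC9 at 37.6 and 32.8 CPM in wt and 10.1 and 10.5 CPM in shDicer. The posterior HOXA13 (-1.63) and the antisense RNA HOXA11-AS (-1.64) had the largest decreases of the HOXA root, and HOXB8 had a log2 fold change of -2.31. Without wt replicate 1, 2 HOXA and 5 HOXC members were called, and with the neighbouring genes as the reference 1 and 6 were.

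Other developmental transcription factors were divided, with 32 of 147 up and 21 down (21 up without wt replicate 2 and 13 down without wt replicate 1). TLX1, needed to form the spleen, was at 0.178 and 0.253 CPM in wt and 23.2 and 19.8 CPM in shDicer (log2 fold change 6.60 ± 0.26 SE, adjusted p = 5.5e-09). SOX5, a factor of cartilage and neural crest, was at 2.13 and 1.64 CPM in wt and 21.1 and 20.9 CPM in shDicer (log2 fold change 3.46 ± 0.15 SE, adjusted p = 9.7e-09), and PAX9 at 8.004 and 6.44 CPM in wt and 38.2 and 34.8 CPM in shDicer (2.33 ± 0.13). FOXF1, a factor of visceral mesenchyme, fell from 10.7 and 12.2 to 2.32 and 2.07 CPM (-2.38 ± 0.16). Imprinted genes rose in 5 of 33 and fell in 4. PEG10, a retrotransposon-derived gene, was at 0.296 and 0.758 CPM in wt and 104 and 144 CPM in shDicer (log2 fold change 7.88 ± 0.25 SE, adjusted p = 1.2e-09) and SGCE, which shares its promoter region on chromosome 7, rose by 1.43 on the log2 scale, opposite to PLAGL1 and HYMAI. TRIM71, a let-7 target that controls stem cell identity, was at 24.4 and 24.3 CPM in wt and 3.47 and 2.91 CPM in shDicer (log2 fold change -2.93 ± 0.14 SE, adjusted p = 2.4e-08), in a list of 24 let-7 targets with 5 up and 7 down.

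The MCM root, whose core members form the helicase of replication origins, had the highest share of downregulated members of all 320 families, with 8 of 12 falling (median -0.73, 5 fallers without wt replicate 2). MCM2 was at 316 and 339 CPM in wt and 155 and 202 CPM in shDicer (log2 fold change -0.88, adjusted p = 0.00038), MCM3 at 295 and 314 CPM in wt and 154 and 187 CPM in shDicer (-0.83) and MCM5 at 494 and 473 CPM in wt and 294 and 276 CPM in shDicer (-0.76). MCM7 (-0.28) was not called. The UTP proteins, which assemble on the pre-ribosomal RNA, fell in 6 of 11, with log2 fold changes of -1.06 for UTP4 and -0.91 for UTP14A.

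The nuclear exosome and other decay factors fell in 11 of 26 (median -0.26, 5 fallers without wt replicate 2). Of all protein-coding genes 16.9% fell, and 26.9% of those in the highest quintile by mean TPM over the 8 chromatin samples. The tRNA processing list below fell in 28.6%, near the latter share. DIS3, a catalytic subunit of the exosome, was at 174 and 188 CPM in wt and 81.8 and 88.3 CPM in shDicer (log2 fold change -1.09 ± 0.08 SE, adjusted p = 1.2e-06), the exonuclease XRN2 that terminates transcription was at 102 and 118 CPM in wt and 50.9 and 65.7 CPM in shDicer (log2 fold change -0.92 ± 0.13 SE, adjusted p = 0.00016), and EXOSC9 and EXOSC4 of the exosome core had log2 fold changes of -0.84 and -0.83. Aminoacyl-tRNA synthetases fell in 14 of 37 and rose in 2 (median -0.35, 8 fallers without wt replicate 2). YARS1, which charges tyrosine tRNA, was at 339.6 and 339 CPM in wt and 157 and 151 CPM in shDicer (log2 fold change -1.14 ± 0.07 SE, adjusted p = 2.8e-07), and the mitochondrial leucine enzyme LARS2 was at 141 and 151 CPM in wt and 67.9 and 73.8 CPM in shDicer (log2 fold change -1.05 ± 0.11 SE, adjusted p = 1.9e-05). Of tRNA processing genes 10 of 35 fell and 2 rose (4 fallers without wt replicate 1), with a log2 fold change of -1.10 for RPP25 of ribonuclease P.

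Cytosolic ribosomal protein genes fell in 28 of 86 and rose in 4 (median -0.32), the risers losing their calls without wt replicate 1. The ribosomal share that fell was 32.6%, and the respiratory chain and splicing lists below fell in 24.1% and 28.6%. These shares stand beside 26.9% of protein-coding genes in the highest quintile by mean TPM. RPL12 was at 249.9 and 247 CPM in wt and 117 and 118 CPM in shDicer (log2 fold change -1.08 ± 0.09 SE, adjusted p = 3.8e-06) and RPS6 at 193 and 209 CPM in wt and 83.8 and 111 CPM in shDicer (log2 fold change -1.04 ± 0.14 SE, adjusted p = 8.6e-05). Without wt replicate 2, 8 members fell, and with the neighbouring genes as the reference 9 fell. Nuclear genes of the respiratory chain fell in 20 of 83 and rose in 1 (median -0.20), with NDUFV1 of complex I at 106.1 and 99.0 CPM in wt and 57.7 and 53.6 CPM in shDicer (log2 fold change -0.88 ± 0.08 SE, adjusted p = 6.7e-06). Their count was 8 without wt replicate 2 and 8 with the neighbouring genes as the reference. SR proteins and hnRNPs, which steer splicing, fell in 10 of 35 and rose in 3 (3 fallers without wt replicate 2), with SRSF4 at 372 and 374 CPM in wt and 196 and 179.5 CPM in shDicer (log2 fold change -0.99 ± 0.08 SE, adjusted p = 1.6e-06).

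Stress lists held more fallers than risers, apart from the immediate early genes. ATF4 response genes fell in 9 of 32 and rose in 4, the risers losing their calls without wt replicate 1, with the cationic amino acid transporter SLC7A3 at 6.94 and 9.66 CPM in wt and 0.632 and 0.371 CPM in shDicer (log2 fold change -4.03 ± 0.31 SE, adjusted p = 1.3e-06) and the sulfur amino acid enzyme CBS at 524 and 486 CPM in wt and 125 and 127 CPM in shDicer (log2 fold change -2.01 ± 0.09 SE, adjusted p = 2.4e-08). Heat shock chaperones fell in 15 of 67 and rose in 2 (8 fallers without shDicer replicate 1), with a log2 fold change of -1.07 for HSPH1 and the testis-enriched HSPA2 at 9.61 and 9.73 CPM in wt and 54.0 and 64.0 CPM in shDicer (log2 fold change 2.61 ± 0.12 SE, adjusted p = 1.4e-08). HSPA1A also fell (-3.27), but it is nearly identical to HSPA1B and lies in the HLA region. Of the heat shock list 22.4% fell, beside 16.9% of all protein-coding genes and 26.9% of those in the highest quintile by mean TPM. Immediate early genes rose in 12 of 31 and fell in 1 (median 0.34), a count of 5 without wt replicate 1. IER3 was at 0 and 0 CPM in wt and 2.84 and 4.19 CPM in shDicer, at least 19.1-fold higher, but it also lies in the HLA region and its value is uncertain. DUSP5, a phosphatase of ERK, was at 3.08 and 3.66 CPM in wt and 15.8 and 14.2 CPM in shDicer (log2 fold change 2.16 ± 0.14 SE, adjusted p = 4.6e-07), and EGR3 fell (-1.65).

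Interferon response and double-stranded RNA sensing genes rose in 12 of 45 and fell in 1 (median 0.14). The risers were 26.7% of the list, beside 14.3% of protein-coding genes. PARP12, an interferon-induced ADP-ribosyltransferase, was at 1.84 and 1.07 CPM in wt and 43.4 and 46.8 CPM in shDicer (log2 fold change 4.94 ± 0.16 SE, adjusted p = 1.4e-09), and IFIH1, which encodes the cytoplasmic sensor MDA5, was at 0.237 and 0 CPM in wt and 2.79 and 2.97 CPM in shDicer (log2 fold change 4.48 ± 0.54 SE, adjusted p = 5.1e-05). In the IRF root 7 of 14 rose and IRF3 fell (-0.75), the latter not called against its neighbours (adjusted p = 0.043). The risers included IRF4 (1.14). SLFN11, which acts at stalled replication forks, was at 1.13 and 1.01 CPM in wt and 105.997 and 144 CPM in shDicer (log2 fold change 6.86 ± 0.20 SE, adjusted p = 9e-10), 1 of 3 Schlafen genes that rose out of 5. Antigen presentation genes rose in 10 of 28 and fell in 4. HLA-DMB was at 2.91 and 2.78 CPM in wt and 0 and 0 CPM in shDicer, at least 17.9-fold lower. Values of HLA genes depend on how well a line's haplotype matches the transcript set and are uncertain.

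Ion channels had risers and fallers of large size. Potassium, sodium and calcium channels rose in 23 of 110 and fell in 11, a median of 0.12 (15 risers and 7 fallers without wt replicate 1). The sodium-activated potassium channel KCNT2 was at 9.90 and 11.4 CPM in wt and 0.158 and 0.106 CPM in shDicer (log2 fold change -6.26 ± 0.31 SE, adjusted p = 4.1e-08), the T-type calcium channel CACNA1H at 34.7 and 32.4 CPM in wt and 6.47 and 6.94 CPM in shDicer (log2 fold change -2.32 ± 0.11 SE, adjusted p = 3e-08), and the mechanosensitive potassium channel KCNK2 at 2.19 and 2.02 CPM in wt and 9.58 and 10.6 CPM in shDicer (log2 fold change 2.25 ± 0.16 SE, adjusted p = 6.8e-07). The neurofilament genes NEFL and NEFM, which are neighbours on chromosome 8, parted. NEFL was at 13.1 and 10.9 CPM in wt and 124 and 196 CPM in shDicer (log2 fold change 3.73 ± 0.19 SE, adjusted p = 5.3e-08) and NEFM at 24.1 and 24.8 CPM in wt and 2.32 and 2.70 CPM in shDicer (log2 fold change -3.28 ± 0.15 SE, adjusted p = 2.2e-08).

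Among protein-coding genes, 2391 of 16672 were upregulated (14.3%) and 2820 downregulated (16.9%). Risers outnumbered fallers in the non-coding classes described here. Of 9548 lncRNAs, 783 rose (8.20%) and 431 fell (4.51%), of 3122 processed pseudogenes 239 rose and 115 fell, and of 487 unprocessed pseudogenes 66 rose and 21 fell. Without wt replicate 1, 393 lncRNAs rose and 207 fell, 120 processed and 32 unprocessed pseudogenes and 1445 protein-coding genes rose, and 8 unprocessed pseudogenes fell. Without wt replicate 2, 49 processed pseudogenes and 1517 protein-coding genes fell. Small RNA classes held few calls, with 19 of 309 snoRNAs up and 6 down, 13 of 476 snRNAs up and 5 down, and 9 of 360 miRNA genes up and 6 down. Without wt replicate 1, 3 snoRNAs and 3 miRNA genes rose, and the snRNAs that rose lost their calls. The fallers were 3 snoRNAs without wt replicate 2, 2 snRNAs without shDicer replicate 2 and 3 miRNA genes without shDicer replicate 1. The share of all counts on lncRNA transcripts was 12.8% and 12.6% in wt and 14.3% and 14.4% in shDicer, and that on retained-intron transcripts was 16.2% and 15.8% in wt and 16.02% and 14.8% in shDicer.

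NEAT1, the lncRNA that builds paraspeckles, rose by an order of magnitude. It was at 699.8 and 776 CPM in wt and 7225 and 8182 CPM in shDicer (log2 fold change 3.38 ± 0.14 SE, adjusted p = 6.5e-09) on chromosome 11, 65422774 to 65445540, plus strand. In the paraspeckle and speckle list 6 of 16 genes fell (3 without wt replicate 2) while NEAT1 and 1 other rose, and NUDT21, a cleavage factor subunit, was at 89.6 and 90.3 CPM in wt and 50.4 and 53.0 CPM in shDicer (log2 fold change -0.80 ± 0.07 SE, adjusted p = 4.8e-06). Antisense lncRNAs rose in 165 of 1455 and fell in 74, and divergent lncRNAs rose in 31 of 487 and fell in 20 (86 and 13 risers without wt replicate 2, and 37 and 9 fallers without wt replicate 1). Host transcripts of microRNAs rose in 9 of 64 and fell in 9 (5 each without wt replicate 1). The antisense lncRNAs thus rose in 11.3% and fell in 5.09%, the divergent ones in 6.37% and 4.11%, and the host transcripts in 14.1% each way. Of all lncRNAs 8.20% rose and 4.51% fell, and of all tested genes 11.0% and 10.5%. MIR99AHG, host of miR-99a, let-7c and miR-125b, was at 5.40 and 6.50 CPM in wt and 28.4 and 32.8 CPM in shDicer (log2 fold change 2.37 ± 0.13 SE, adjusted p = 9e-08), MIR222HG, host of miR-221 and miR-222, was at 69.2 and 72.1 CPM in wt and 9.11 and 11.3 CPM in shDicer (log2 fold change -2.79 ± 0.11 SE, adjusted p = 5.2e-09), and MIR4458HG at 3.97 and 5.37 CPM in wt and 0.158 and 0.0530 CPM in shDicer (log2 fold change -5.37 ± 0.47 SE, adjusted p = 6.9e-06). The pseudogenes DUXAP9 (-3.28 ± 0.09) and DUXAP10 (-3.49 ± 0.11), which are related copies, both fell, while 6 of 10 members of the DUX root rose. Within that root DUX4L20, DUX4L22, DUX4L23 and DUX4L24 held identical values in every sample (log2 fold change 1.17) and cannot be told apart, and 1 member of the root was called without shDicer replicate 1.

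Median changes ranged widely between chromosomes. Chromosome 18 had the highest median log2 fold change of any nuclear chromosome (0.35), with 29.6% of its 619 tested genes upregulated and 4.20% downregulated. Chromosomes 16 (-0.32, 23.4% downregulated), 22 (-0.31), 11 (-0.25) and 9 (-0.21) had the lowest. In windows of 10 Mb with at least 30 tested genes, 29 of 294 had a median above 0.3 and 28 a median below -0.3. On chromosome 19 between 30 and 40 Mb 137 of 288 genes rose (median 0.66), on chromosome 2 between 240 and 250 Mb 24 of 49 fell (median -0.68), and on chromosome 9 between 90 and 100 Mb 68 of 158 fell and 4 rose (median -0.65).

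In the separate mRNA-seq libraries the medians of these chromosomes were 0.51 (18), -0.34 (16), -0.14 (22), -0.26 (11) and 0.27 (9), the last with the opposite sign. In shDrosha against the same wt samples they were 0.05, -0.09, -0.10, 0.00 and 0.00. A difference in chromosome copy number between the lines was not tested. To separate a gene's change from that of its surroundings, the median log2 fold change of 25 genes on each side was entered as an offset, an analysis added after the data had been seen. It left 2883 genes upregulated and 2208 downregulated.

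In the HLA region of chromosome 6 between 28 and 34 Mb, 42 of 224 tested genes rose (18.75%) and 23 fell (10.3%). Of all tested genes 11.0% rose and 10.5% fell. The region held 27 genes with a log2 fold change above 3 and 7 with one below -3. Among all 32874 tested genes, 385 upregulated genes passed 3 and 164 downregulated genes passed -3. VARS2, a mitochondrial valine tRNA synthetase within the region, was at 1.54 and 1.33 CPM in wt and 48.5 and 39.0 CPM in shDicer (log2 fold change 4.92 ± 0.21 SE, adjusted p = 9.5e-09), while VPS52 was at 26.98 and 28.04 CPM in wt and 0.99997 and 1.32 CPM in shDicer. Histone genes of the neighbouring cluster on the same arm also parted, with H2AC8 at 1.01 and 1.45 CPM in wt and 16.9 and 27.2 CPM in shDicer (log2 fold change 4.17 ± 0.29 SE, adjusted p = 6.2e-07) and H3C1 at 15.1 and 17.5 CPM in wt and 0.895 and 1.59 CPM in shDicer (log2 fold change -3.71 ± 0.27 SE, adjusted p = 9.4e-07) among 52 replication-dependent histones, of which 3 rose and 6 fell. The part of haplotype differences in these values was not tested.

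Calls were also described by gene length, level and base composition. Among protein-coding genes, 25.5% of the length quintile with the greatest genomic length rose and 12.9% fell, against 9.51% and 16.8% of the quintile of shortest genes. In the highest quintile by mean TPM over the 8 chromatin samples 11.8% rose and 26.9% fell, and in the lowest quintile 11.4% rose and 6.54% fell, where fewer counts also leave less power to call a gene. In the quintile with the highest GC content 11.9% rose and 20.5% fell. These shares are descriptions without a test, and the properties overlap between genes.

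Since Dicer makes microRNAs, genes were also described by matches to microRNA seeds in their annotated 3′ UTR. An 8-base match pairs with bases 2 to 8 of the microRNA, in capitals below, followed by an A in the transcript.
hsa-miR-17-5p: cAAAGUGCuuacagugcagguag
hsa-miR-92a-3p: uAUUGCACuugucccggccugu
hsa-let-7a-5p: uGAGGUAGuagguuguauaguu

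The mature sequences are from RefSeq (GRCh38.p14), in which all 10 microRNA families described were found. In chromatin RNA the median log2 fold change was 0.01 for the 776 genes with a miR-17 match, 0.07 for 560 with a miR-92a match and -0.01 for 684 with a let-7 match, against -0.04 for all 16520 genes with a 3′ UTR. The mRNA-seq medians cover the 695, 480 and 572 of these genes tested in both assays. They were 0.13, 0.16 and -0.00, against 0.03 for all 12664 such genes with a 3′ UTR. Over the same genes the chromatin medians were 0.01, 0.08 and -0.02, against -0.07 for all. In mRNA-seq 24.3% of the 695 genes with a miR-17 match and 17.0% of the 12664 were upregulated. In chromatin RNA the shares were 19.2% of 776 and 14.4% of 16520, so that the sets of genes differ between the assays. The other 7 families had chromatin medians between 0.00 and 0.05 and mRNA medians between -0.05 (miR-200) and 0.10 (miR-10), of which those of miR-200, miR-26, miR-30 and miR-21 lay below that of all genes.

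The mRNA-seq comparison, made from other libraries after a longer induction, called 2348 of 15089 genes upregulated (15.6%) and 2143 downregulated (14.2%) at an adjusted p below 0.001 (edgeR). Of the 3631 genes upregulated in chromatin RNA, 2350 were tested there, and 1380 of them (58.7%) were also upregulated while 15 were downregulated. Of the 3465 downregulated genes, 2799 were tested, 1144 (40.9%) were also downregulated and 21 were upregulated. The overlaps make up 59.0% of the genes upregulated and 53.7% of the genes downregulated in mRNA-seq that were tested in both. Without wt replicate 1, 1466 genes were upregulated and 1291 downregulated in mRNA-seq, and without wt replicate 2 the counts were 1474 and 1277. ERBB4, SPINT1, PXDN and FLNC kept their direction, with mRNA log2 fold changes of 9.02, 5.72, -7.49 and -4.55. ENSG00000274276, among the largest chromatin increases, went the other way, with an mRNA log2 fold change of -1.56.

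Lists differed in how far the mRNA followed. Ribosomal protein genes, of which 28 of 86 fell in chromatin RNA, had an mRNA median of 0.02 with 13 up and 16 down of 85 tested, and HOX genes one of 0.18 with 4 up and 2 down of 31. RPS6 was at 1895, 1893 and 1882 CPM in wt and 1649.6, 1841 and 1789 CPM in shDicer in mRNA-seq (log2 fold change -0.10, adjusted p = 0.22). Vimentin, which fell in chromatin RNA, had an mRNA log2 fold change of 0.06 (adjusted p = 0.68). Receptor tyrosine kinases (0.81, 16 up and 2 down of 41), interferon genes (0.97, 15 up of 33) and collagens and laminins (0.93, 14 up and 3 down of 35) had higher medians in mRNA-seq, over the smaller number of genes tested there. The difference between the assays was not tested, because library type, induction time and possibly the cell line differ together.

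**Figure D1:**
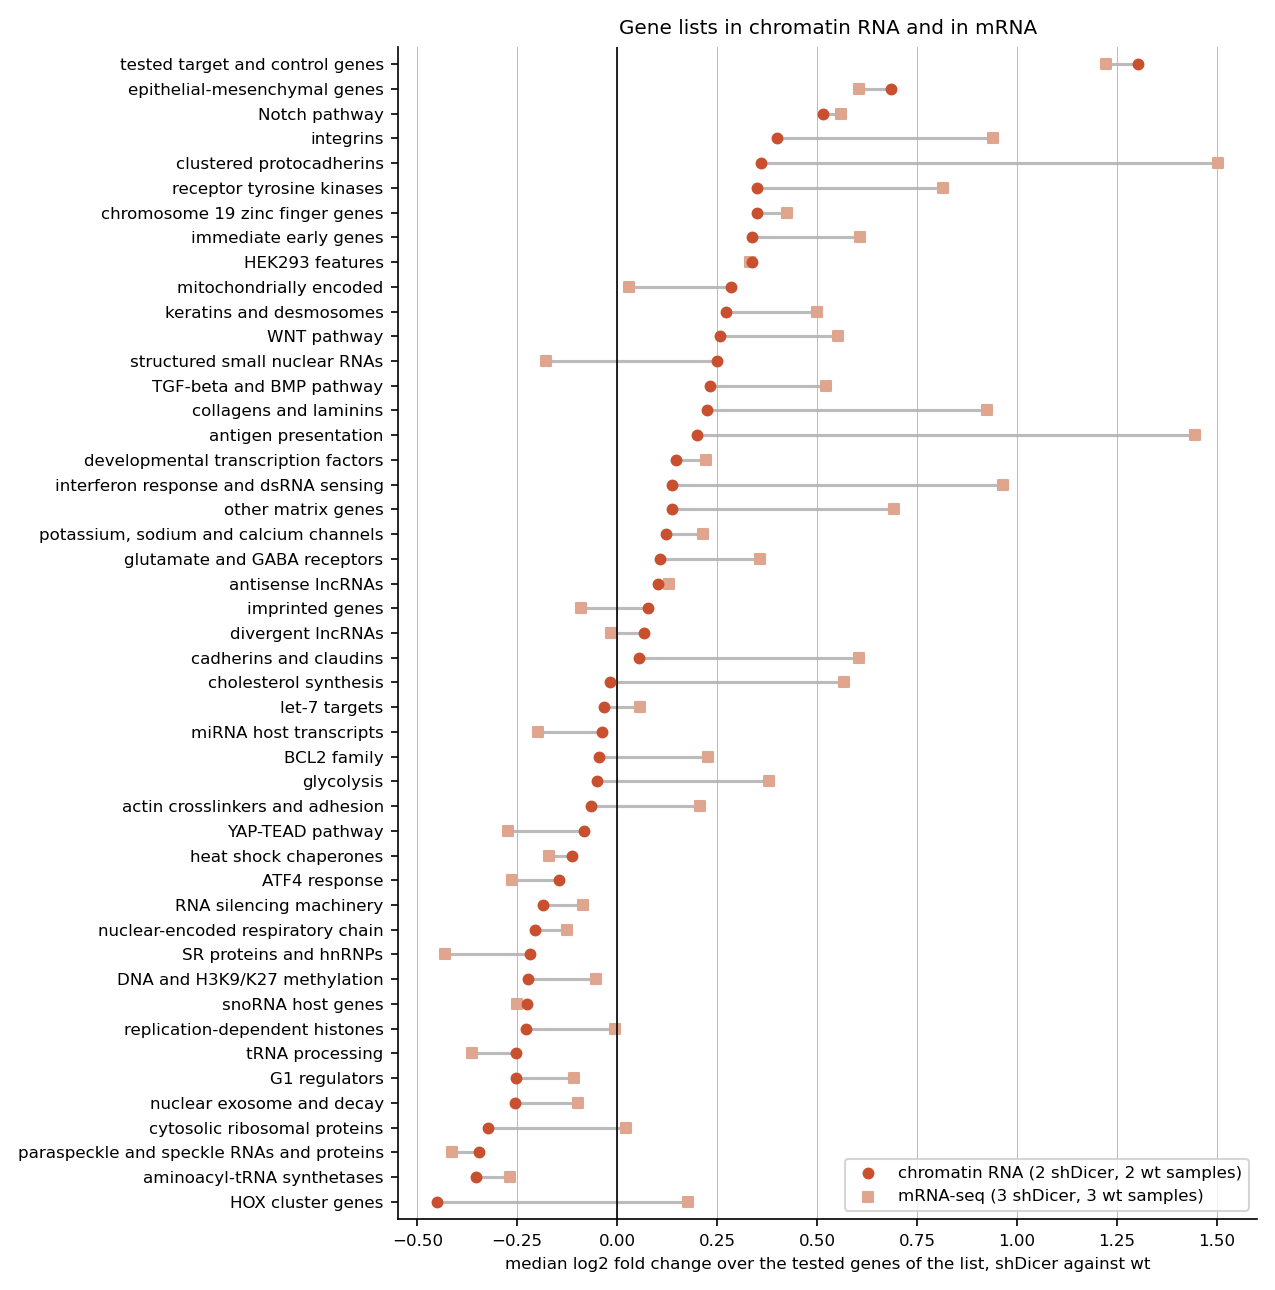
Median log2 fold change of shDicer against wt for each gene list in chromatin RNA and in mRNA-seq, joined by a line. Ribosomal protein and HOX lists lie below 0 in chromatin RNA and slightly above 0 in mRNA-seq, and receptor and matrix lists are above 0 in both.

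The 36 genes called in opposite directions included several with large mRNA changes. TMEM229B fell in chromatin RNA from 98.6 and 94.5 to 15.5 and 18.1 CPM (log2 fold change -2.52) and rose in mRNA with one of 2.01. The sodium-calcium exchanger SLC8A1 rose from 2.91 and 3.03 to 7.21 and 8.21 CPM (1.38), whereas its mRNA log2 fold change was -2.75. HOXA5, a HOXA member lowered in chromatin RNA (-0.52), rose in mRNA (0.55). Of the 21 genes that fell in chromatin RNA and rose in mRNA, 8 lie on chromosome 9. TMEM229B, SLC8A1 and HOXA5 were chosen after their values were seen.

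Compared directly, shDicer and shAgo2 chromatin RNA differed in fewer genes, with 450 higher (1.37%) and 441 lower (1.34%) in shDicer of 32874 tested. These counts were 55 and 74 without shAgo2 replicate 1, 47 and 79 without shAgo2 replicate 2 and 265 and 175 without shDicer replicate 1. Both groups are set against the same wt samples, in which 3631 and 3465 genes were called for shDicer and 4098 and 3970 for shAgo2, and the 2 contrasts share those controls. PXDN separated the lines, at 114 and 122.8 CPM in wt and 5.37 and 4.66 CPM in shDicer, beside 83.4 and 77.3 CPM in shAgo2 (shDicer against shAgo2 -3.9997 ± 0.12, adjusted p = 4.4e-09). The kainate receptor subunit GRIK3 was at 1.07 and 0.884 CPM in wt and 4.74 and 5.46 CPM in shDicer, beside 0.639 and 0.819 CPM in shAgo2 (2.80 ± 0.24, adjusted p = 3.7e-05). By contrast ERBB4 was at 91.2 and 84.8 CPM, SPINT1 at 15.5 and 13.97 CPM, KRT19 at 16.5 and 16.9 CPM and MGMT at 43.7 and 42.2 CPM in shAgo2. Zinc finger genes of chromosome 19 were lower in shDicer than in shAgo2 in 24 of 250 members, and clustered protocadherins lower in 12 of 42 and higher in 2.

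Against shDrosha, 3608 genes were higher (11.0%) and 3126 lower (9.51%) in shDicer, whereas shDrosha itself differed from wt in 26 upregulated (0.0791%) and 58 downregulated genes (0.176%). ERBB4 was at 0.685 and 0.435 CPM, SPINT1 at 1.31 and 1.14 CPM, PXDN at 112 and 94.7 CPM and NEAT1 at 2291 and 1794 CPM in the 2 shDrosha samples, with NEAT1 above both wt samples (log2 fold change 1.47) and the other 3 genes near their wt levels. DROSHA itself was at 166 and 148 CPM in shDrosha against 146 and 153 CPM in wt (log2 fold change 0.07, adjusted p = 0.7). AGO2 was at 162 and 159.6 CPM in shAgo2 against 239.8 and 255 CPM in wt (-0.62, adjusted p = 9.3e-05). Of the 3 hairpin targets, AGO2 alone was called lower in the chromatin RNA of its own line.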

How the data were processed

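Chromatin RNA and mRNA were sequenced by the authors, chromatin RNA with the NEBNext Ultra II directional kit, and quantified with kallisto 0.43.1 in stranded mode on the Ensembl 89 cDNA and ncRNA sequences (GRCh38). The deposited tables hold estimated counts, effective lengths and TPM per transcript. These estimated (expected) counts, as the authors deposited them, cover exonic sequence only, so that unspliced RNA contributes through exons and annotated retained introns. Labels name polyA selection for the mRNA-seq whereas the methods name ribosomal depletion.

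Estimated counts were summed per gene by transcript identifier through GENCODE 44, which held 193697 of 217082 transcripts (89.2%), and rounded to whole numbers. The 4 samples totalled 17484067 to 20453521 counts, at which 3 counts are 0.157 to 0.183 CPM. Genes were filtered with filterByExpr, scaled by TMM and tested with edgeR 4.0.16 (quasi-likelihood F test) in R 4.3.3, in 1 fit of the 8 chromatin samples and another of the 6 mRNA samples. Benjamini-Hochberg thresholds of 0.005 (chromatin RNA) and 0.001 (mRNA-seq) follow the study's methods. Deposited TPM served for levels per length. DESeq2 1.42.0 was an alternative. The scripts were tested on simulated data.

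Members, the 51 gene lists and the tests were chosen with earlier results of these data known. The respiratory chain list was restricted to protein-coding genes after its values were seen. Genes were named by rule: the silencing and target lists, the 12 largest changes each way among genes whose mean log2 CPM reached 3, and the largest called changes of each list and biotype. Families were symbol roots with at least 10 tested genes, of which the 6 with the highest share called in each direction were chosen. Of these, ARMC (1 up, 5 down) and EXOSC (0 up, 6 down) are not described as roots above. The 6 small RNA samples were not analysed here. Alternatives covered normalization, filter, tool, samples fitted, transcripts kept, TPM-scaled counts, thresholds, replicate block, leaving out each sample and, added after seeing the data, the neighbouring genes as an offset. A few genes are not reported here.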

Additional observations from a re-analysis of the deposited data

Results flagged for a closer look

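The genes called in opposite directions in chromatin RNA and in mRNA-seq of shDicer against wt numbered 15 that were higher in chromatin RNA and lower in mRNA, and 21 that were lower in chromatin RNA and higher in mRNA. The difference between the assays was not tested. Among the largest chromatin increases, ENSG00000274276 had an mRNA log2 fold change of -1.56 (adjusted p = 7.9e-07), whereas in chromatin RNA it was at 0 and 0 CPM in wt and 7.79 and 9.32 CPM in shDicer. GRIK3 lay above both wt samples in both shDicer samples and below them in both shAgo2 samples, at 2.37 (shDicer) and -0.43 (shAgo2) on the log2 scale relative to the same wt samples, and the direct difference between the lines was 2.80 ± 0.24 (edgeR adjusted p = 3.7e-05).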

How the results depend on the processing

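Of 133 named genes called in shDicer against wt, all but 10 kept their call under all 13 alternatives of the fit, those 10 lost it under at least 1 of them, and all 133 kept their direction. Leaving out 1 sample gave 2043 to 3194 genes upregulated and 1831 to 2740 downregulated in chromatin RNA, 1466 to 2466 and 1277 to 2258 in mRNA-seq, 47 to 307 and 74 to 280 against shAgo2, and 2720 to 3097 and 2130 to 2596 against shDrosha. An adjusted p below 0.05 gave 6281 and 6111 genes, a fold threshold of 2 on top of the main one 1911 and 828, and the neighbouring genes as an offset, added after seeing the data, 2208 downregulated. Without the low-count filter 3747 genes were upregulated in mRNA-seq, and 726 were higher and 705 lower than in shAgo2. The cause of these shifts was not tested. Most of the 133 named genes were chosen as the largest called changes of a list, biotype or direction. Their calls were therefore likely to hold, and they do not stand for called genes in general. The 133 named genes also leave out family members such as SEMA4A, SEMA3G, SEMA3F-AS1 and CAMK2G, whose lost calls are given with their families.

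Replicate numbers did not establish pairing. Correlations of deviations were 0.258 in chromatin RNA and 0.117, 0.0607 and 0.234 for the mRNA pairs. With 2 samples in each group the 2 chromatin pairs must give the same value. These correlations cannot decide whether samples were paired. With the replicate number as a block 3085 genes rose and 2792 fell in chromatin RNA, 2493 and 2280 in mRNA-seq, 3047 and 2445 against shDrosha, and 200 and 213 against shAgo2.

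Genes that changed sign were uncalled. TNRC6C was at -0.00099 with DESeq2 and with its size factors, -0.0278 with counts scaled from TPM and -0.00979 without the filter. With the neighbouring genes as an offset TNRC6B was at 0.28, DROSHA at -0.0169, AGO2 at 0.0360, TUT4 at -0.0475, GAPDH at -0.0717 and ETNK1 at -0.0521. With counts scaled from TPM DICER1 was at 0.11 and TBCEL at 0.0970. Leaving out 1 sample gave -0.0618 to 0.0665 for TNRC6C, -0.15 to 0.21 for GAPDH, -0.12 to 0.25 for ETNK1 and -0.20 to 0.00217 for TBCEL. With 2 samples in each group, changes near the threshold depend on single samples, and genes below about 1 CPM rest on fewer than about 20 counts.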

Other observations

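Gene groups not described above changed in smaller numbers in shDicer chromatin RNA. Of 25 YAP and TEAD pathway genes, 4 rose and 4 fell. The matricellular target CCN2 was at 1.78 and 1.83 CPM in wt and 8.37 and 9.27 CPM in shDicer (log2 fold change 2.28 ± 0.17 SE, adjusted p = 9.8e-07), whereas the angiomotin family member AMOTL2 was at 24.4 and 25.2 CPM in wt and 14.6 and 15.5 CPM in shDicer (log2 fold change -0.72 ± 0.10 SE, adjusted p = 0.0001) and fell like AMOT. Actin crosslinking and adhesion genes rose in 6 of 39 and fell in 7. LCP1, the actin bundling protein of blood cells, was at 1.36 and 1.45 CPM in wt and 81.9 and 109 CPM in shDicer (log2 fold change 6.07 ± 0.19 SE, adjusted p = 9.6e-10), and the PDZ and LIM protein PDLIM4 was at 5.34 and 5.49 CPM in wt and 0.158 and 0.477 CPM in shDicer (log2 fold change -4.07 ± 0.34 SE, adjusted p = 2.4e-06). Among cadherins, CDH4 of the nervous system was at 13.8 and 14.2 CPM in wt and 1.11 and 1.85 CPM in shDicer (log2 fold change -3.23 ± 0.23 SE, adjusted p = 6.1e-07). Other matrix genes rose in 9 of 33 and fell in 6. Of 54 genes of the epidermal differentiation complex 10 were tested, 4 rose, HRNR and FLG among them, and 1 fell. Without wt replicate 1, 2 actin genes rose. Without wt replicate 2, 3 actin genes fell. Without shDicer replicate 2, 2 YAP and TEAD pathway genes and 5 other matrix genes rose, and without shDicer replicate 1, 3 other matrix genes fell.

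Genes of the BCL2 family rose in 4 of 20 and fell in 4 (2 risers without wt replicate 2 and 2 fallers without shDicer replicate 2). PMAIP1, which encodes the pro-apoptotic NOXA, was at 12.7 and 14.7 CPM in wt and 52.3 and 57.3 CPM in shDicer (log2 fold change 2.004 ± 0.12 SE, adjusted p = 1.7e-07). Glycolytic genes rose in 4 of 19 and fell in 2, the decreases losing their calls without wt replicate 2, with the glucose transporter SLC2A3 at 20.7 and 18.6 CPM in wt and 39.8 and 45.98 CPM in shDicer (log2 fold change 1.12 ± 0.10 SE, adjusted p = 3.8e-06) and the hexokinase HK2 at 102 and 114 CPM in wt and 58.1 and 68.9 CPM in shDicer (log2 fold change -0.76 ± 0.12 SE, adjusted p = 0.00043). Cholesterol synthesis genes rose in 5 of 22 and fell in 4 (1 riser without wt replicate 1 and 1 faller without wt replicate 2). Of 29 genes of DNA, H3K9 and H3K27 methylation 2 rose and 6 fell (3 fallers without wt replicate 1), with EED of the Polycomb complex at 53.5 and 57.0 CPM in wt and 31.6 and 34.3 CPM in shDicer (log2 fold change -0.75 ± 0.10 SE, adjusted p = 0.00013). Host genes of snoRNAs rose in 1 of 28 and fell in 7 (3 without shDicer replicate 1), with SNHG3 at 1000.2 and 959 CPM in wt and 491 and 430.3 CPM in shDicer (log2 fold change -1.09 ± 0.09 SE, adjusted p = 1.9e-06). Mitochondrially encoded genes rose in 3 of 31 and structured small nuclear RNAs in 3 of 32, counts that were lost or reduced to 1 without wt replicate 1. Glutamate and GABA receptor genes rose in 6 of 41 and fell in 5 (3 fallers without shDicer replicate 1). Of 86 cancer-testis genes 10 were tested, and their median log2 fold change was 0.09.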
